A study of Mus musculus with 6 samples.

Results

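The genes described here encode the proteins that modify, fold, export, trim and crosslink collagen, the main protein of bone matrix. They are a list of 38 mouse genes given by name, and 37 of them were found among the 24016 genes of the deposited table. *Adamts3* was matched to no row and was not analysed here. Expression was measured by RNA-seq in MC3T3-E1 subclone 4 cells, a single clone of a wild-type preosteoblast line from mouse calvaria, which had been differentiated for 6 days with β-glycerophosphate (10 mM) and ascorbic acid (50 μg/ml). The vehicle group (3 libraries) and the corticosterone group (3 libraries, 100 nM) were kept for 24 h, and the treatment protocol names 10 nM calcitriol, the active form of vitamin D, without setting the groups apart. Corticosterone is the main glucocorticoid of mice, and ascorbic acid, which all cells received, is a cofactor of the collagen hydroxylases. The series describes the replicates as biological, but the labels do not say how the cultures were kept apart, so p-values measure the spread between these libraries.

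A procollagen chain is modified as it enters the endoplasmic reticulum. Prolyl 4-hydroxylases act on prolines that stabilise the triple helix, lysyl hydroxylases and galactosyltransferases on lysines that later take part in crosslinks, and prolyl 3-hydroxylases on a few further prolines. Chaperones then hold the folded helix, COPII coat proteins carry it out of the endoplasmic reticulum, proteinases remove the propeptides at both ends, and lysyl oxidases start the covalent crosslinks between molecules. Recessive defects in many of these genes, among them those for the prolyl 3-hydroxylase complex, HSP47 and FKBP65, cause brittle bone disease.

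Between 16020401 and 25638645 reads per library were assigned to genes, and the corticosterone libraries were all shallower than the vehicle libraries. A normalized count is the number of reads divided by 1 size factor per library, and 3 reads, taken as the floor, are worth 2.32 to 3.84 normalized counts (this covers counting error only). Levels of different genes are compared only as normalized counts per kb of exon. All 4 glucocorticoid response genes listed were higher, with log2 fold changes of 1.49 for *Tsc22d3* to 2.75 for *Sgk1*. The study itself names these 4 as upregulated in the same data, so their rise is no independent check of the treatment. Of 8 osteoblast markers, 6 were lower and *Spp1* was higher. All 8 were detected, with *Phex* at only 1 to 9 reads per library. Of the osteocyte markers (2 of 3 in the table), *Dmp1* had 486 to 767 reads per library and *Mepe* 0 to 2. The groups overlapped for *Dmp1*, with a log2 fold change of 0.05. The adipocyte list was summed over the 2 of its 6 genes that the table holds, and reached 7.72 to 21.1 normalized counts with vehicle and 108 to 133 with corticosterone. Nearly all of it was *Fabp4*, since *Plin1* was at 0 in 5 of 6 libraries. Chondrocyte markers (3 of 5 in the table) summed to 3477 to 3899 with vehicle and 2875 to 2929 with corticosterone, with *Matn1* at 0 to 2 reads. Blood and macrophage markers (2 of 5) summed to at most 62.4, and *Pecam1*, the endothelial marker in the table, to at most 7.30. The part of these markers in the results on the collagen genes was not tested, and in these bulk samples fewer cells of a type and less RNA per cell cannot be told apart.

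Collagen processing genes changed in both directions. Among the 35 with at least 10 reads in every library, the largest rises were those of *Loxl2*, *Lox* and *Adamts14* and the largest falls those of *P4ha3*, *P4ha1* and *Sec23a*. Tested with limma on log2(normalized count + 0.1) and adjusted by Benjamini-Hochberg over all genes, 8 of the 37 genes were higher and 11 lower after corticosterone at an adjusted p under 0.05. That is 51.4% of them, where 16.7% of all genes in the table passed, 8.49% as higher and 8.2% as lower. Most of the collagen genes are abundant, and abundant genes passed more often. Among genes with a mean normalized count of at least 1000, 53.3% of the 30 collagen genes and 41.7% of all 4315 genes passed. The 3 corticosterone libraries lay outside the range of the vehicle libraries for 27 of the 37 genes (73.0%, against 29.6% of all genes). For those with a mean of at least 1000 the share was 80.0%, against 57.7% of all such genes. The median log2 fold change of these 30 genes was -0.09 and that of all 4315 was 0.01, while the median size of the change was 0.164 and 0.124, respectively. *Loxl2* was the only gene past the study's own threshold, an adjusted p under 0.05 with an absolute log2 fold change over 1, which 2.78% of all genes passed. A two-sided exact permutation test of 3 against 3 libraries cannot go below p = 0.1, which it gave for every gene whose groups did not overlap.

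**Figure D1:**
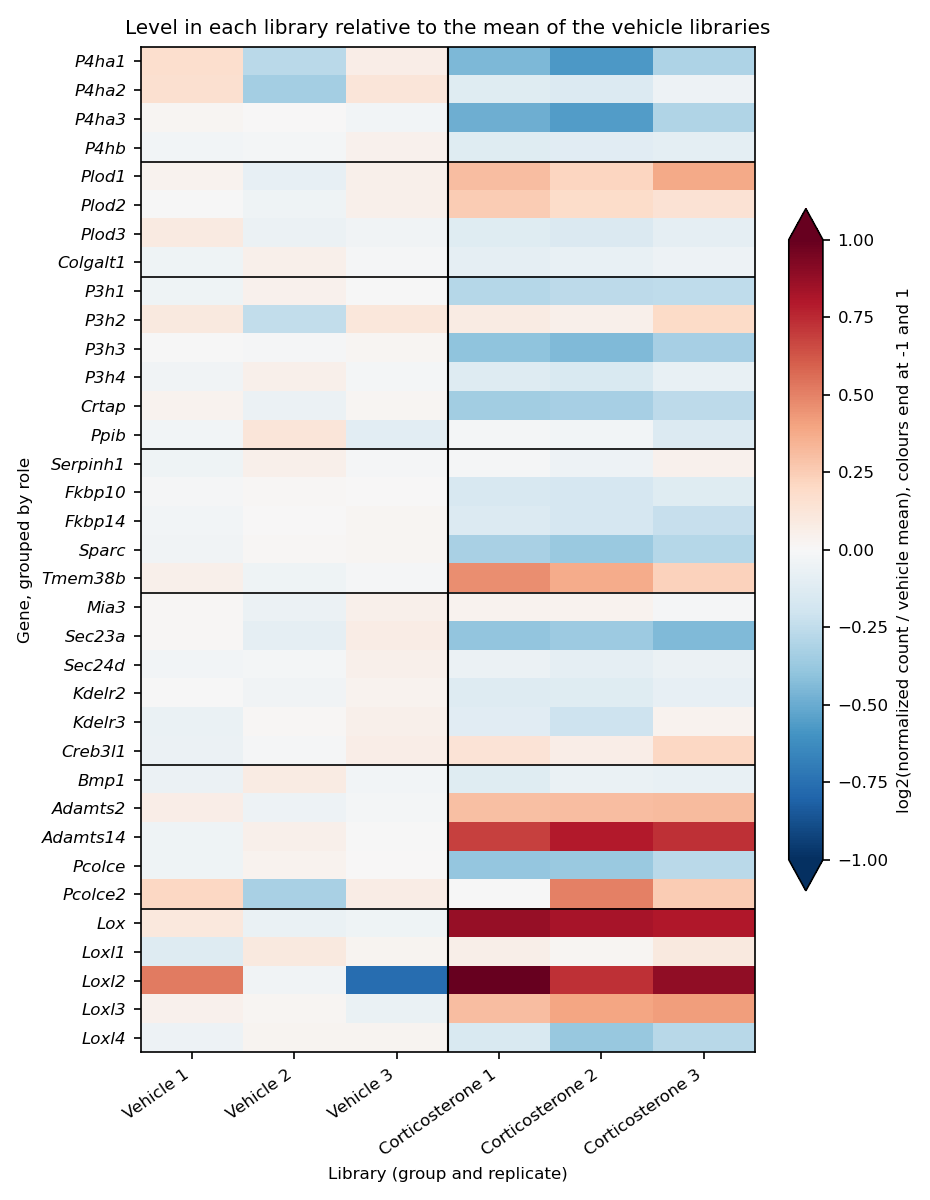
Levels of the 35 genes with at least 10 reads in every library, as log2 of the normalized count over the mean of the vehicle libraries, with a column for each library and rows grouped by role. In the rows of *P3h1*, *P3h3*, *Lox* and *Adamts14* the 3 corticosterone libraries differ from vehicle in the same direction and to a like degree. Vehicle replicate 2 is low for *P4ha1*, *P4ha2* and *P3h2*.

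**Figure D2:**
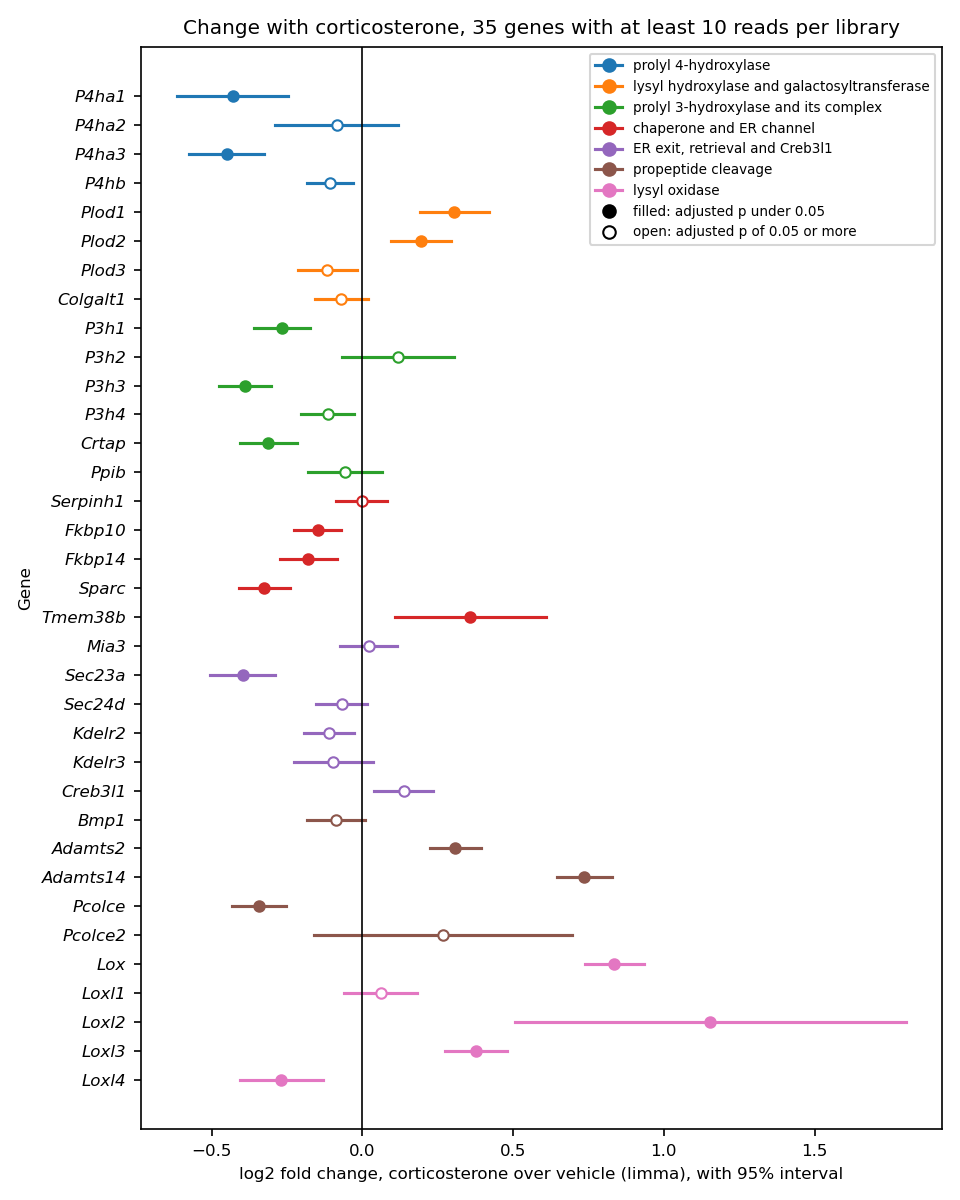
Log2 fold change of the 35 genes, corticosterone over vehicle, on the horizontal axis, with the 95% interval of the limma fit (bars) and colours for roles. Filled points (19) had an adjusted p under 0.05 and lie between -0.45 for *P4ha3* and 1.15 for *Loxl2*, whose interval is the widest.

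To set the strongest changes beside their regulatory sequence, promoter windows of 300 bases, from 250 before to 50 after the annotated start, were read from RefSeq (GRCm38.p6). The table held 28 windows of 25 of the 38 genes. Windows are shown for the called genes with the largest rises (*Adamts14*, *Adamts2*) and falls (*P4ha3*, *P4ha1*, *Sec23a*) among those with a window, and for *Sparc*, the only one of the 13 called genes with a window that holds a glucocorticoid response half-site. The other 6 called genes are *Fkbp10*, *Lox*, *Loxl2*, *Loxl3*, *Plod2* and *Tmem38b*. The windows are written along the strand of the gene, and capitals mark that half-site (AGAACA, read as TGTTCT on the other strand) and the core ACGTG, read on the other strand as CACGT, which is shared by hypoxia response elements and some E-boxes.
Adamts14, chr10:61273370-61273669, minus strand: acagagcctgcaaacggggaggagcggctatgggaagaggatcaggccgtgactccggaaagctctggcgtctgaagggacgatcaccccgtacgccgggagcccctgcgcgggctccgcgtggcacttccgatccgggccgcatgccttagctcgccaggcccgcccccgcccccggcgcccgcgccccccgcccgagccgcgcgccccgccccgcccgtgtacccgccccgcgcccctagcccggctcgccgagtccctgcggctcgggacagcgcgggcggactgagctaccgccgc
Adamts2, chr11:50601835-50602134, plus strand: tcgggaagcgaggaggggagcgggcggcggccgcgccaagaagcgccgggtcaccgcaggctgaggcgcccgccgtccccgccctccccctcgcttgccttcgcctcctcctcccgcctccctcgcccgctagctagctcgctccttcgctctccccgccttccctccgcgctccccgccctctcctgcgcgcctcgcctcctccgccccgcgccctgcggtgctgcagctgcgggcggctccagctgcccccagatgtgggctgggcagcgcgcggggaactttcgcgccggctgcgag
P4ha3, chr7:100285270-100285569, plus strand: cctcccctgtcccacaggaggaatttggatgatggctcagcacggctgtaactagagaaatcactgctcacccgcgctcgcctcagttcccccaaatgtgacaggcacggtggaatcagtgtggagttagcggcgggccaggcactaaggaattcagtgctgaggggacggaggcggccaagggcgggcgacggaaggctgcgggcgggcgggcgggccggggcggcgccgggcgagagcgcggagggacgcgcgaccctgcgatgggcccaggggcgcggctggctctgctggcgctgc
P4ha1, chr10:59323046-59323345, plus strand: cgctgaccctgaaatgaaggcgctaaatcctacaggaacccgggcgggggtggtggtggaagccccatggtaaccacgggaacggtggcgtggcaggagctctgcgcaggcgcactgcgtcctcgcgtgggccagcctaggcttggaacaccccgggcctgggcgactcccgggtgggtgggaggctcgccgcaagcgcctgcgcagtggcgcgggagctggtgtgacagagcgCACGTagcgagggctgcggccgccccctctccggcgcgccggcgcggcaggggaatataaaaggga
Sec23a, chr12:59011968-59012267, minus strand: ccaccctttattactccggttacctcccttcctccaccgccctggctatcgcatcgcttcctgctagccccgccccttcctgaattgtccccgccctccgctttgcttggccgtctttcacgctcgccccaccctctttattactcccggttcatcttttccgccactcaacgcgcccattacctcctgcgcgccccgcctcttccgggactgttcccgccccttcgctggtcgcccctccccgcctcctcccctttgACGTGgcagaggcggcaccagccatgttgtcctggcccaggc
Sparc, chr11:55420031-55420330, minus strand: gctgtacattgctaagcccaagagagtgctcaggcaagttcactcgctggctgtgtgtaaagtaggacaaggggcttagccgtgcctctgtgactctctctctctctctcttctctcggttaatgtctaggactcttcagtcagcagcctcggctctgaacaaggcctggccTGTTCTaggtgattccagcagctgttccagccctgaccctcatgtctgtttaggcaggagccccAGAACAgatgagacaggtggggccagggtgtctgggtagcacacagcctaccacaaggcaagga
The half-site was present in 3 of the 28 windows (10.7%, of *Colgalt1*, *Pcolce2* and *Sparc*) and in 19.0% of all 32851 windows. In *Sparc* it starts 78 and 14 bases before the annotated start, which lies 3103 bases inside the gene as GENCODE lists it, while the starts of the other 5 windows shown are at most 19 bases from the listed 5′ end of their gene. The full element, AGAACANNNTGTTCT, was in 0 of the 28 and in 3 of all windows. The core ACGTG was in 46.4% of the collagen gene windows and 19.6% of all windows. It was held by genes that were lower (*P4ha1*, *P3h1*, *Fkbp14*, *Sec23a*) and by genes that did not pass, such as *P4hb*, *Serpinh1* and *Mia3*. For *P3h1* and *Fkbp14* it was only in a window whose start lies 914 and 4134 bases inside the gene, respectively. Their windows near the listed 5′ end hold 0 matches. The GC box GGGCGG (or CCGCCC) was in 78.6% against 35.7%, CCAAT (or ATTGG) in 32.1% against 37.4%, and TATAAA (or TTTATA) in 10.7% against 13.6%. The windows of *Crtap*, *P4ha1* and *Plod1* hold the last of these. A match describes the letters of a window and was not tested for binding.

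Of the 4 prolyl 4-hydroxylase genes, 2 were lower and none was higher in limma (3 and 0 at an unadjusted p under 0.05, with edgeR and with DESeq2). In limma that is 50.0%, beside 16.7% of all genes and 41.7% of those with a mean of at least 1000. The enzyme is a tetramer of catalytic alpha subunits (*P4ha1*, *P4ha2*, *P4ha3*) and of the protein disulfide isomerase encoded by *P4hb*, and it makes the 4-hydroxyproline on which the thermal stability of the helix depends. *P4ha1* had 5073, 3753 and 4750 normalized counts with vehicle and 3322, 3040 and 3659 with corticosterone. The groups did not overlap, but the second vehicle library was near the highest corticosterone library. Its log2 fold change was -0.43 (SE 0.09, adjusted p = 0.0019), and the call was lost without vehicle replicate 1 or 3 or any corticosterone replicate (adjusted p 0.085 to 0.23), with values of -0.50 to -0.34. Without a variance trend in the fit the call was lost too (adjusted p = 0.21). *P4ha3* had 2374, 2352 and 2293 with vehicle and 1670, 1586 and 1895 with corticosterone. All 3 corticosterone libraries were lower, with a log2 fold change of -0.45 (SE 0.06, adjusted p = 2.8e-05), the largest fall of the 35 genes with at least 10 reads in every library.

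*P4ha2* ranged from 839.7 to 1186 with vehicle and from 963 to 1023 with corticosterone, so the groups overlapped. Its log2 fold change was -0.09 with a 95% interval of -0.29 to 0.12 (adjusted p = 0.67). Here too vehicle replicate 2 was the lowest library, and without it the value was -0.25 (adjusted p = 0.024). *P4hb* had by far the highest level of this group per kb, 8176 ± 204 (SD, n = 3) with vehicle. Its normalized counts were 23010, 23110 and 24060 with vehicle and 21560, 21630 and 21900 with corticosterone, which did not overlap. The difference was small, -0.11 (95% interval -0.19 to -0.03), and just missed the threshold (adjusted p = 0.052). It passed in 8 alternatives, among them edgeR (0.034) and DESeq2 (0.0071). Summed per kb, the alpha subunits reached 2016 ± 198 with vehicle and 1518 ± 131 with corticosterone (SD, n = 3), without overlap of the libraries. *P4ha1* remained the most abundant of them, with 54.4% ± 3.13 of the sum with vehicle and 53.5% ± 0.595 with corticosterone.

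Of the 5 genes for lysyl hydroxylases and galactosyltransferases, 2 were higher and none was lower in limma, edgeR and DESeq2 (2 and 1 at an unadjusted p under 0.05). The share of 40.0% stands beside 16.7% of all genes and 41.7% of those with a mean of at least 1000. *Plod1* encodes the enzyme that hydroxylates lysines within the helix, *Plod2* the one that acts on the telopeptides outside it, and *Plod3* an enzyme that also transfers sugars to hydroxylysine. *Plod1* had 1852, 1708 and 1875 normalized counts with vehicle and 2247, 2106 and 2362 with corticosterone. It was higher in every corticosterone library, by 0.30 on the log2 scale (SE 0.05, adjusted p = 0.00062), and the adjusted p rose to 0.051 to 0.063 without vehicle replicate 1 or 2 or corticosterone replicate 1. Without a variance trend in the fit the adjusted p was 0.11. *Plod2* had 2544, 2477 and 2650 with vehicle and 3044, 2911 and 2821 with corticosterone, a log2 fold change of 0.19 (SE 0.05, adjusted p = 0.0069). The groups did not overlap, but the call was lost without either of the first 2 replicates of each group (adjusted p 0.080 to 0.088). The same happened with upper-quartile scaling (0.14) and without a variance trend (0.18).

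*Plod3*, the most abundant of the 3 enzymes at 765 ± 43.2 per kb (SD, n = 3) with vehicle, had 3681, 3324 and 3366 normalized counts with vehicle and 3180, 3133 and 3247 with corticosterone. The difference of -0.12 (95% interval -0.22 to -0.02) missed the threshold (adjusted p = 0.11), although the groups did not overlap. The summed level of the family was 1507 ± 56.7 per kb with vehicle and 1579 ± 29.8 with corticosterone (SD, n = 3), with overlapping libraries. Within it, the share of *Plod3* was 50.8% ± 1.503 with vehicle and 44.7% ± 0.627 with corticosterone, while *Plod1* had 17.8% ± 0.476 and 20.95% ± 0.911. The libraries of the groups did not overlap in either share. *Colgalt1*, which encodes the main galactosyltransferase of hydroxylysine, had the highest level per kb of the group, 935 ± 30.4. Its normalized counts were 3929, 4187 and 4014 with vehicle and 3808, 3850 and 3897 with corticosterone (log2 fold change -0.07, 95% interval -0.16 to 0.02, adjusted p = 0.32). Its relative *Colgalt2* had 0 to 4 reads per library and was not comparable at this depth. Exons of *Plod2*, *Plod3* and *Colgalt1* overlap those of other genes, and whether the counting used the strand is not given in the sources used here.

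**Figure D3:**
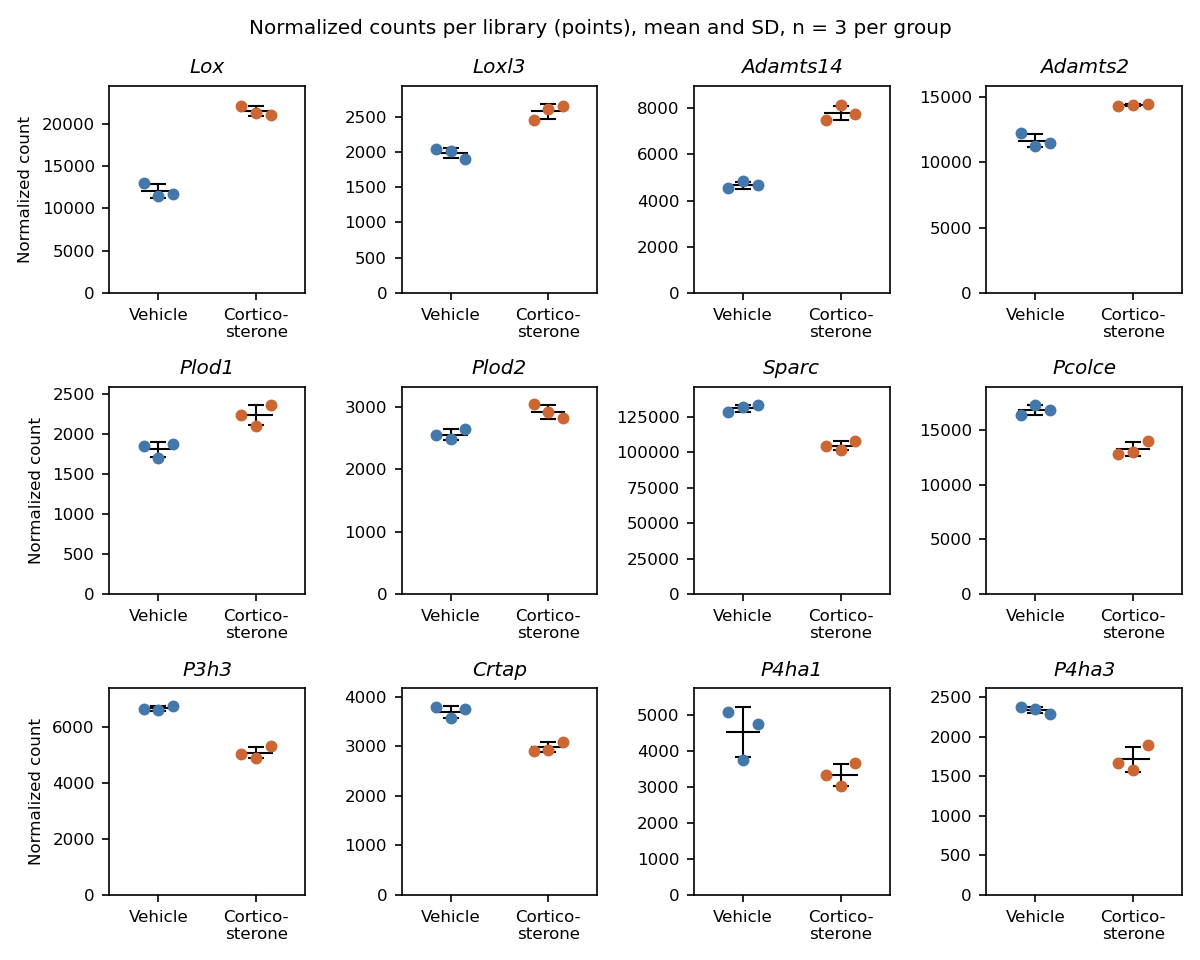
Normalized counts of 12 genes in each library (points, replicates 1 to 3 from left to right), with the mean (wide bar) and SD (whiskers), n = 3 per group, on vertical axes that start at 0. In all 12 panels the groups do not overlap, with the smallest gap for *P4ha1*.

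Of the prolyl 3-hydroxylases and their partners, 3 of 6 were lower and none was higher in limma (4 and 0 at an unadjusted p under 0.05, with edgeR and with DESeq2). In limma that is 50.0%, beside 16.7% of all genes and 41.7% of those with a mean of at least 1000. *P3h1*, *Crtap* and *Ppib* encode the complex of prolyl 3-hydroxylase 1, cartilage-associated protein and cyclophilin B, which modifies a proline of the type I collagen helix and acts as a chaperone. *P3h1* had 2446, 2585 and 2512 normalized counts with vehicle and 2062, 2101 and 2104 with corticosterone (log2 fold change -0.27, SE 0.04, adjusted p = 0.00031). *Crtap* had 3782, 3560 and 3751 with vehicle and 2910, 2933 and 3091 with corticosterone (-0.31, SE 0.04, adjusted p = 6.8e-05). Both were lower in every corticosterone library. The third partner, *Ppib*, had 2206, 2448 and 2090 with vehicle and 2222, 2203 and 2047 with corticosterone, with overlapping groups. Its log2 fold change was -0.06 (95% interval -0.18 to 0.06, adjusted p = 0.62), but 37.0% of the 31-base stretches of its transcripts also occur in other genes and 25.0% of its exon bases lie opposite *Snx22*, so its level is uncertain.

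*P3h3* showed the clearest fall of the group. It had 6652, 6625 and 6769 normalized counts with vehicle and 5062, 4920 and 5318 with corticosterone, which is -0.39 on the log2 scale (SE 0.04, adjusted p = 2.5e-06). *P3h4*, a non-enzymatic relative of *Crtap* that forms a complex with *P3h3* and *Plod1*, had the highest level per kb after *Crtap* (1977 ± 61.1 and 2087 ± 67.7 with vehicle, SD, n = 3). Its normalized counts of 4202, 4456 and 4259 with vehicle and 3945, 3884 and 4090 with corticosterone did not overlap, but the difference of -0.12 (95% interval -0.21 to -0.03) did not pass (adjusted p = 0.075). It did so with edgeR (0.044) and DESeq2 (0.045). *P3h2*, an enzyme with a preference for other collagen types, was between 488 and 627 with vehicle and between 599.7 and 659 with corticosterone (0.12, 95% interval -0.07 to 0.30, adjusted p = 0.45). Its level is uncertain too, since 28.9% of its 31-base stretches occur in other genes and 28.35% of its exon bases lie opposite *Gm4524*. The summed level of the 3 enzymes per kb was 2510 ± 30.1 with vehicle and 2009 ± 61.4 with corticosterone, without overlap of the libraries. *P3h3* accounted for 67.8% ± 0.0679 of it with vehicle and 64.6% ± 0.635 with corticosterone.

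Of the 5 chaperone and channel genes, 3 were lower and 1 was higher in limma. The share of 80.0% stands beside 16.7% of all genes and 41.7% of those with a mean of at least 1000. *Serpinh1*, which encodes the collagen-specific chaperone HSP47, did not pass. It had 33340, 35610 and 34050 normalized counts with vehicle and 34110, 33230 and 35450 with corticosterone, with a log2 fold change of -0.00 and a 95% interval of -0.09 to 0.08 (adjusted p = 0.98). At 14050 ± 475 normalized counts per kb (SD, n = 3) with vehicle it had the highest level of the 37 genes after *Sparc*. *Sparc*, which encodes osteonectin, a collagen-binding matrix protein, reached 34610 ± 687 and lies on chromosome 11 (55394500 to 55423183, minus strand, GRCm38). Its normalized counts were 128200, 131900 and 133200 with vehicle and 104600, 101400 and 107800 with corticosterone. Every corticosterone library was lower, with a log2 fold change of -0.33 (SE 0.04, adjusted p = 1.6e-05).

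*Fkbp10* and *Fkbp14* encode the prolyl isomerases FKBP65 and FKBP22 of the endoplasmic reticulum. *Fkbp10* had 7480, 7610 and 7551 normalized counts with vehicle and 6741, 6731 and 6956 with corticosterone. *Fkbp14* had 2408, 2460 and 2493 with vehicle and 2231, 2181 and 2090 with corticosterone. Both fell slightly and without overlap, by 0.15 (SE 0.04, adjusted p = 0.0098) and 0.18 (SE 0.04, adjusted p = 0.01) on the log2 scale. Without corticosterone replicate 1, *Fkbp10* had an adjusted p of 0.057, and *Fkbp14* one of 0.056 to 0.069 without vehicle replicate 2 or 3 or corticosterone replicate 2. Both calls were also lost without a variance trend (adjusted p = 0.21 and 0.18, respectively). *Fkbp10* and *P3h4* lie side by side on chromosome 11, on opposite strands and with 860 bases between them. *Tmem38b*, which encodes the TRIC-B cation channel of the endoplasmic reticulum, had only 112 to 157 reads per library. Its normalized counts were 126.5, 118 and 121 with vehicle and 168, 158 and 143 with corticosterone, a log2 fold change of 0.36 (SE 0.12, adjusted p = 0.049). That call was lost in 11 of 17 alternatives, among them DESeq2 (0.13), pseudocount 1 (0.058) and the removal of any library but corticosterone replicate 3 (0.074 to 0.12).

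Export from the endoplasmic reticulum was represented by 6 genes, of which 1 was lower and none higher in limma (2 and 1 at an unadjusted p under 0.05, with edgeR and with DESeq2). The limma share is 16.7%, beside 16.7% of all genes and 41.7% of those with a mean of at least 1000. *Mia3* encodes TANGO1, the receptor that loads procollagen at exit sites, and its log2 fold change was 0.02 (95% interval -0.07 to 0.12, adjusted p = 0.83). *Sec23a* and *Sec24d* encode inner coat proteins of COPII vesicles. *Sec23a* had 2256, 2102 and 2358 normalized counts with vehicle and 1703, 1740 and 1653 with corticosterone. It was lower in every corticosterone library (log2 fold change -0.40, SE 0.05, adjusted p = 2.5e-05), with 8.9% of its exon bases shared with an overlapping gene. *Sec24d* had a log2 fold change of -0.07 (95% interval -0.15 to 0.02, adjusted p = 0.31).

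The paralog *Sec23b* did not pass (-0.04, 95% interval -0.17 to 0.08, adjusted p = 0.69). Among 17 other COPII and exit-site genes, 3 were higher and none lower in limma (3 and 0 at an unadjusted p under 0.05 and with edgeR, 2 and 0 with DESeq2). In limma that is 17.6% of them, near the 16.7% of all genes. The 3 were *Sec16a*, a scaffold of exit sites (log2 fold change 0.25, adjusted p = 0.00035), *Mia2* (0.20, adjusted p = 0.043) and the cargo receptor gene *Lman1* (0.15, adjusted p = 0.043). *Kdelr2* and *Kdelr3* encode receptors that return chaperones with a KDEL tail from the Golgi. *Kdelr2* had the highest level per kb of this group, 3294 ± 82.2 (SD, n = 3) with vehicle, and normalized counts of 6018, 5879 and 6179 with vehicle and 5519, 5535 and 5695 with corticosterone. The groups did not overlap, yet the difference of -0.11 (95% interval -0.19 to -0.03) had an adjusted p of 0.07, and it passed in 6 alternatives, among them edgeR (0.041) and DESeq2 (0.032). *Kdelr3* was at -0.10 (95% interval -0.23 to 0.03, adjusted p = 0.36). *Creb3l1*, which encodes OASIS, a transcription factor of the endoplasmic reticulum membrane that acts on type I collagen genes in osteoblasts, had 4761, 4926 and 5204 with vehicle and 5442, 5208 and 5724 with corticosterone. Its libraries did not overlap, with a log2 fold change of 0.14 (95% interval 0.04 to 0.24, adjusted p = 0.056) that passed in 7 alternatives, such as edgeR (0.029) and DESeq2 (0.024). Neither its paralog *Creb3l2* (0.14, adjusted p = 0.077) nor the genes of its activating proteases, *Mbtps1* and *Mbtps2*, passed in limma, while 1 of these 3 genes was higher at an unadjusted p under 0.05 and with edgeR, and 0 with DESeq2.

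Both measured procollagen N-proteinases rose. *Adamts2* and *Adamts14* encode metalloproteinases that remove the amino-terminal propeptide of fibrillar procollagens. *Adamts14* (chromosome 10, 61197112 to 61273438, minus strand) had 4534, 4832 and 4659 normalized counts with vehicle and 7500, 8121 and 7746 with corticosterone. The lowest corticosterone library was far above the highest vehicle library, and the rise was 1.67-fold (log2 fold change 0.74, SE 0.04, adjusted p = 2.6e-09). *Adamts2* (chromosome 11, 50602084 to 50807573, plus strand) had 12190, 11210 and 11470 with vehicle and 14310, 14370 and 14470 with corticosterone. It was higher in every corticosterone library, 1.24-fold (0.31, SE 0.04, adjusted p = 2.4e-05). Per kb, their sum was 2144 ± 29.2 with vehicle and 3039 ± 62.8 with corticosterone (SD, n = 3), and the share of *Adamts14* in it 41.96% ± 1.80 and 49.3% ± 0.974, without overlap of the libraries. The promoter windows of both, printed above, hold neither of the capitalised motifs.

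Of the 4 measured genes of the list that act on the carboxy-terminal propeptide, *Pcolce* was lower, and *Bmp1*, *Tll1* and *Pcolce2* did not pass. *Bmp1*, which encodes the procollagen C-proteinase, had 3522, 3869 and 3591 normalized counts with vehicle and 3366, 3487 and 3471 with corticosterone. Its log2 fold change was -0.09 (95% interval -0.18 to 0.01, adjusted p = 0.24). Its relative *Tll1* had 0 to 2 reads per library, at or below the floor. *Pcolce*, whose product enhances C-propeptide removal, is the most abundant of these genes at 4413 ± 122 per kb (SD, n = 3) with vehicle. It had 16390, 17330 and 16900 normalized counts with vehicle and 12870, 13010 and 14030 with corticosterone, so every corticosterone library was lower (-0.34, SE 0.04, adjusted p = 1.4e-05). *Pcolce2*, with 55 to 84 reads per library, had overlapping groups (0.27, 95% interval -0.16 to 0.70, adjusted p = 0.46). Among 5 other proteases of propeptides and their activators, *Furin* was higher (0.20, adjusted p = 0.0037), as was *Mep1a* (1.20, adjusted p = 0.00023), the gene of meprin alpha, which had 63 to 155 reads per library.

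Lysyl oxidases, the copper enzymes that oxidise lysines for crosslinks, held the 2 largest rises among the 35 genes with at least 10 reads in every library. *Lox* (chromosome 18, 52516067 to 52529867, minus strand) had 13010, 11500 and 11700 normalized counts with vehicle and 22130, 21330 and 21060 with corticosterone. All corticosterone libraries were far above all vehicle libraries, a 1.78-fold rise (log2 fold change 0.84, SE 0.05, adjusted p = 1.4e-09). *Loxl3* (chromosome 6, 83034173 to 83052562, plus strand) had 2047, 2005 and 1898 with vehicle and 2457, 2612 and 2652 with corticosterone. It too was higher in every library, 1.30-fold (0.38, SE 0.05, adjusted p = 2.6e-05), with 11.6% of its exon bases shared with the overlapping *Htra2*. *Loxl4* went down, from 855.5, 900.7 and 900.9 to 795.5, 681.5 and 731.8 (-0.27, SE 0.06, adjusted p = 0.0073). The groups did not overlap, but the call was lost on leaving out any library but corticosterone replicate 1 (adjusted p 0.077 to 0.13). The same happened without a variance trend (0.16). *Loxl1*, which acts mainly on elastin, had overlapping groups of 1496 to 1744 with vehicle and 1652 to 1751 with corticosterone (0.06, 95% interval -0.06 to 0.18, adjusted p = 0.58).

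*Loxl2* had the largest log2 fold change but few reads, 19 to 93 per library. Its normalized counts were 47.8, 32.4 and 19.7 with vehicle and 99.6, 55.2 and 61.4 with corticosterone. The groups did not overlap, though each varied widely, with coefficients of variation of 42.4% and 33.3%. The log2 fold change was 1.15 (SE 0.31, adjusted p = 0.014), and the call was lost on leaving out any single library (adjusted p 0.082 to 0.29, values of 0.82 to 1.46). *Loxl2* also lost its call without a variance trend (adjusted p = 0.23). In addition, 46.4% of the 31-base stretches of its transcripts also occur in other genes, so its level is uncertain. Its contribution to the family was small, at most 0.313% of the summed level per kb in any library.

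Summed over the family, the level was 3669 ± 143 normalized counts per kb with vehicle and 5764 ± 107 with corticosterone (SD, n = 3). *Lox* made up 68.8% ± 2.04 of this sum with vehicle and 78.1% ± 0.681 with corticosterone. The share of *Loxl1* was 13.5% ± 1.51 and 8.95% ± 0.316, and that of *Loxl4* was 5.74% ± 0.384 and 3.03% ± 0.186. Even *Loxl3*, whose own level was higher, had a smaller share with corticosterone (11.8% ± 0.335 and 9.71% ± 0.561). In none of these 4 shares did the groups overlap. Of 8 genes for partners of lysyl oxidase and for copper supply, 2 were lower and none higher in limma, edgeR and DESeq2 (3 and 0 at an unadjusted p under 0.05). The limma share is 25.0%, beside 16.7% of all genes and 41.7% of those with a mean of at least 1000. The 2 lower genes were *Fmod*, which encodes fibromodulin, a binding partner of lysyl oxidase on collagen (-0.96, adjusted p = 8.4e-10), and *Fn1*, the fibronectin gene (-0.29, adjusted p = 5.1e-05). The copper supply genes *Atp7a*, *Slc31a1* and *Atox1* did not pass, with log2 fold changes of -0.05, -0.04 and 0.03.

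**Figure D4:**
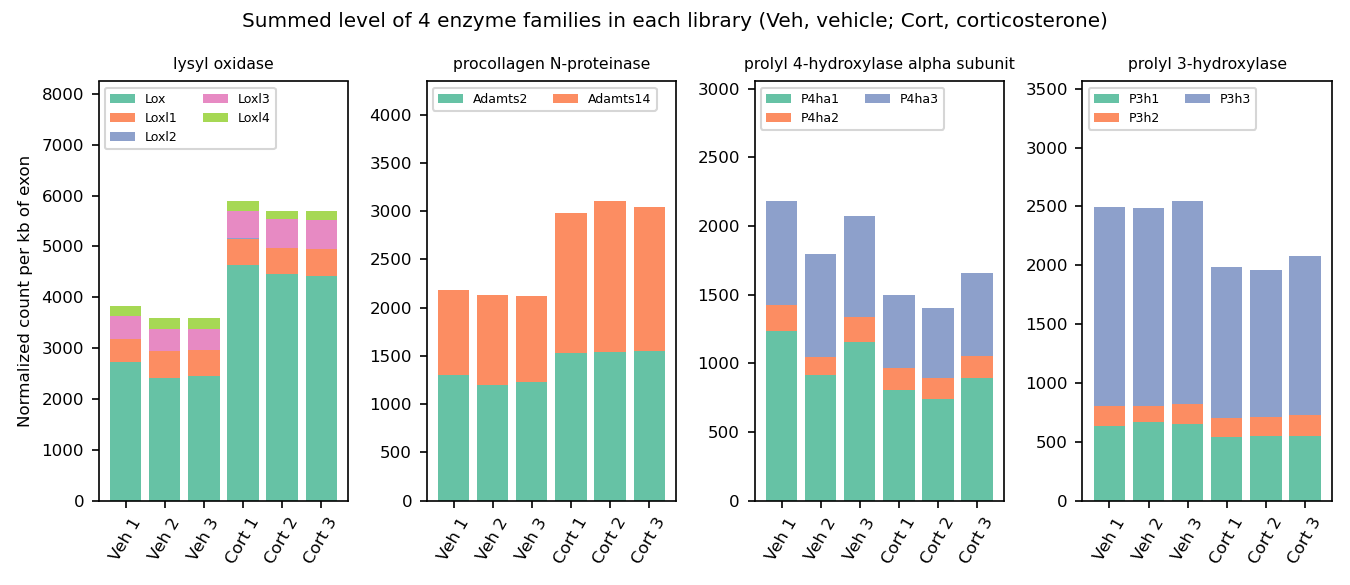
Summed level of 4 enzyme families in each library as normalized counts per kb of exon (bars start at 0, segments stand for genes). The lysyl oxidase and N-proteinase bars are higher in all 3 corticosterone libraries, mostly through *Lox* and *Adamts14*, and the prolyl hydroxylase bars are lower.

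Processing genes were last set against their substrate. All 5 fibrillar collagen chains listed were lower after corticosterone, from -0.15 for *Col1a1* (adjusted p = 0.035) over -0.23 for *Col5a1*, -0.25 for *Col5a2* and -0.35 for *Col1a2* to -0.60 for *Col3a1* (adjusted p = 5.3e-08). Their summed level per kb was 165140, 166150 and 171200 with vehicle and 140710, 141310 and 148340 with corticosterone, a log2 change of -0.22. The general folding genes *Hspa5*, *Hsp90b1*, *Pdia3*, *Pdia4*, *Pdia6*, *Canx* and *Calr* had log2 fold changes of -0.09 to 0.07, and 0 of 7 passed in limma, edgeR or DESeq2 (1 at an unadjusted p under 0.05).

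Expressed per 1000 of that collagen sum in the same library, 22 of the 35 genes with at least 10 reads in every library were higher with corticosterone without overlap, 6 were lower and 7 overlapped. These shares of 62.9% and 17.1% stand beside 54.9% and 6.01% of all 12891 genes with at least 10 reads in every library. Because the denominator was lower, a gene whose own level did not move is higher on this scale. *Serpinh1* is an example, at 83.9 ± 3.34 with vehicle and 97.8 ± 1.48 with corticosterone (SD, n = 3). The largest differences other than that of *Loxl2* were those of *Lox*, with 15.1 ± 1.21 and 31.4 ± 1.61 (1.06 on the log2 scale), and *Adamts14*, with 5.37 ± 0.195 and 10.45 ± 0.534 (0.96). *Adamts2* had 7.44 ± 0.408 and 10.75 ± 0.258.

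A smaller set of genes was lower even per unit of this collagen sum. *P4ha3* (-0.23), *Sec23a* (-0.17), *P3h3* (-0.17), *Pcolce* (-0.12), *Sparc* (-0.10) and *Crtap* (-0.09) were so in every corticosterone library, in log2 changes of the ratio. The sum is led by *Col1a1*, the chain that fell least, at 108100 per kb with vehicle beside 45130 for *Col1a2*. In their own level, *Pcolce* (-0.34), *Sparc* (-0.33) and *Crtap* (-0.31) fell no more than *Col1a2* (-0.35). None of these genes fell as much as *Col3a1* (-0.60). For *Sparc* the ratio was 207 ± 2.59 with vehicle and 193 ± 3.49 with corticosterone (SD, n = 3). *P3h1*, *Fkbp14* and *Loxl4*, lower in their own level, overlapped on this scale, whereas *Fkbp10*, also lower in its own level, was higher per unit of collagen without overlap (15.4 ± 0.297 with vehicle and 16.2 ± 0.179 with corticosterone). *P4ha1* overlapped too, and its change of -0.21 was set against a wide vehicle range of 5.49 to 7.47. The two-sided exact permutation p was 0.1 for the 28 genes without overlap, the smallest that 3 against 3 libraries allow.

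**Figure D5:**
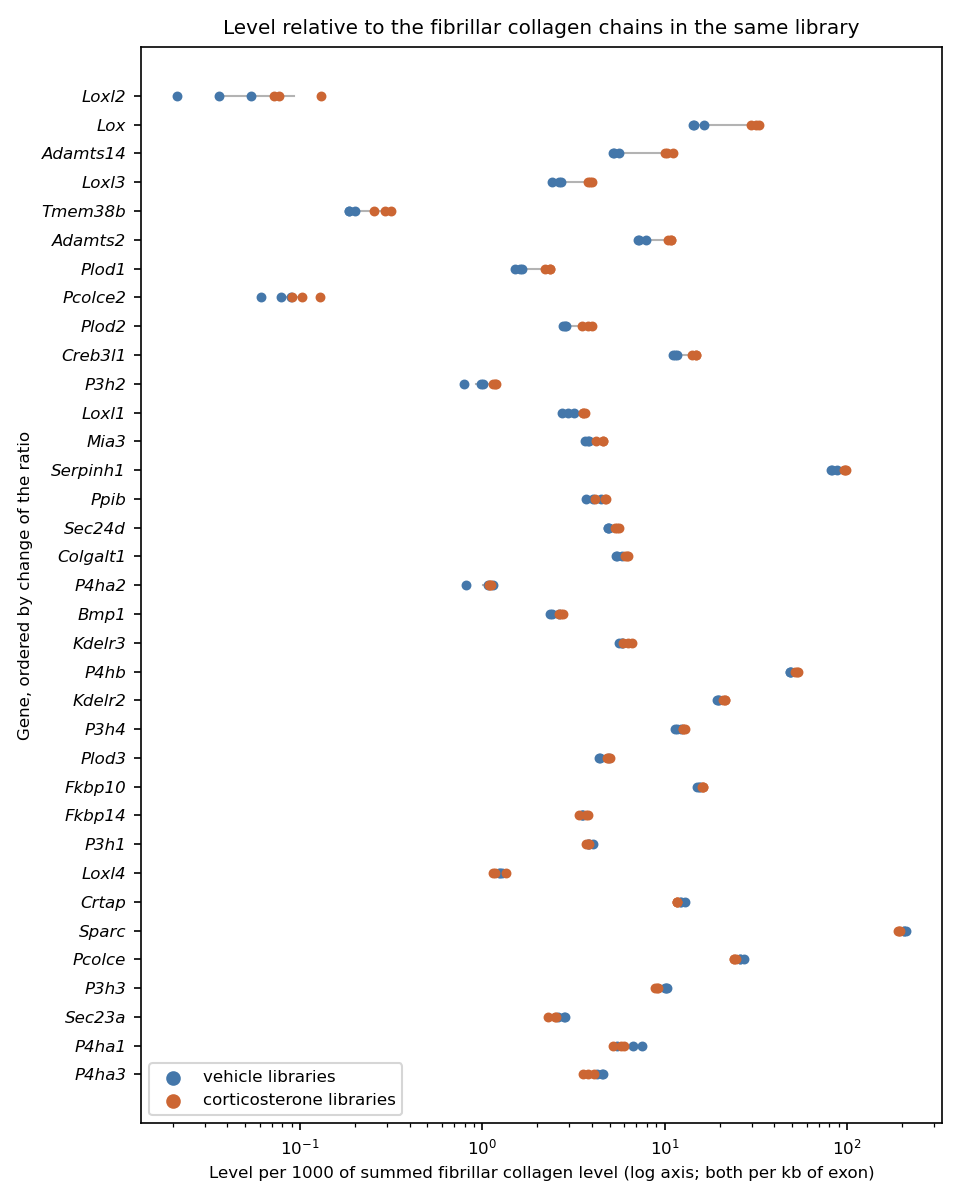
Level of each of the 35 genes per 1000 of the summed level of 5 fibrillar collagen chains in the same library, both per kb of exon, on a log axis, with a point for each library, a grey line between the group means and genes ordered by the change of the ratio. Vehicle and corticosterone points are farthest apart for *Loxl2*, *Lox* and *Adamts14* at the top, and the order is reversed for *P4ha3*, *Sec23a* and *P3h3* at the bottom.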

How the data were processed

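RNA-seq libraries of differentiated MC3T3-E1 cells were compared, 3 with vehicle and 3 with 100 nM corticosterone. Per the labels, total RNA was isolated on columns and libraries were made with the NEBNext Ultra kit. The submitters' processing notes name the build mm10, while the aligner, the counting program and the strand setting are not given in the sources used here. The deposited values carry the name FPKM. In every library, however, 100% of the values come out as whole reads (tolerance 0.01 reads) after multiplication by 1 number, whatever the length of the gene. They are therefore a signal that the authors made by dividing read counts by 1 size factor per library, and the recovered reads served the count-based alternatives. The planned test, chosen for FPKM, was retained.

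The 38 genes, their roles and the lists of further genes were chosen with earlier results of these data known. All 38 could be named, with values per library for those that passed and for the most abundant of each role. Symbols, coordinates and merged exon lengths came from GENCODE M21 (GRCm38), which matched 23983 of 24016 identifiers. Groups were compared with limma 3.58.1 (lmFit, eBayes with a variance trend, two-sided) in R 4.3.3 on log2(value + 0.1), without a filter, with Benjamini-Hochberg adjustment over all genes. Single values were also compared by a two-sided exact permutation test. Alternatives were pseudocounts of 1 and 0.01, a minimum mean of 10, a replicate block, no variance trend, upper-quartile and quantile scaling, edgeR 4.0.16 and DESeq2 1.42.0 with and without the block, and leaving out each library. The main limma fit and the edgeR and DESeq2 fits without the block were run on simulated counts, and the other alternatives were not. Reads shared between genes were gauged by 31-base stretches that also occur in transcripts of another gene. Counts of any pair of libraries differed beyond sampling noise (chi-square per degree of freedom of at least 3.38). Python 3.11.15, pandas 2.3.3, scipy 1.17.1 and matplotlib 3.10.9 made tables and figures. The growth protocol names passages 4 to 10 and the batch label passages 6 to 12.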

Additional observations from a re-analysis of the deposited data

How the results depend on the processing

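Of the 19 genes past the threshold, none changed sign in 17 alternatives, and 6 (*Adamts14*, *Lox*, *Loxl3*, *P3h3*, *Sec23a*, *Sparc*) passed in all of them. Of the 16 others with at least 10 reads in every library, 8 passed in at least 1 alternative. Without a variance trend, 3 genes were higher, 3 lower and 0 past the study's threshold, and with quantile normalization 17 were lower. Over all 24016 genes, 1633 passed without a variance trend and 4078 with quantile normalization, beside 4010 in the main fit. Leaving out 1 library gave 4 to 7 higher and 8 to 10 lower genes (4 higher without vehicle replicate 1 or 2 or corticosterone replicate 1, and 5 without corticosterone replicate 2) and 0 to 0 past the study's threshold. These fits, in which 2362 to 3034 of all 24016 genes passed, have fewer samples, and for the other settings the cause was not tested. Upper-quartile scaling, which moved the median of all genes to -0.08, gave 6 higher and 15 lower, with 3944 of all genes past the threshold. The same setting turned the values of *Mia3* to -0.0471 and of *Loxl1* to -0.0071, and quantile normalization that of *Mia3* to -0.0279. Small values also changed sign when a library was left out, with ranges of -0.0092 to 0.0467 for *Mia3*, -0.0004 to 0.11 for *Loxl1*, -0.0276 to 0.0237 for *Serpinh1*, -0.1085 to 0.0055 for *Ppib*, -0.2452 to 0.0035 for *P4ha2* and -0.0001 to 0.1807 for *P3h2*. Under the replicate block, 8 of the collagen genes passed as higher and 12 as lower, and 3905 of all genes passed. Same-numbered libraries shared only a number (correlations of their deviations from the group means of -0.04, 0.00 and 0.02 across 13880 genes, and 1 of 6 libraries correlating best with its own number). The block added *P4hb* (adjusted p = 0.049) and *Creb3l1* (0.033) and removed *Tmem38b* (0.065). EdgeR called 9 higher and 14 lower and DESeq2 8 and 14. Of the genes with an adjusted p, 4327 of 13871 passed with edgeR and 3634 of 15167 with DESeq2. For *Colgalt2* and *Tll1*, with at most 4 reads, and for *Loxl2*, *Pcolce2* and *Tmem38b*, with at most 157 reads in any library, depth limits what could be seen.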
